A study of Mus musculus with 5 samples.

Results

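Neutrophils and Ym1+Ly6Chi monocytes, both sorted from mouse bone marrow (BM) after a systemic injection of lipopolysaccharide (LPS), were compared to see which granulocyte genes stayed apart between these cell types and which were at a similar level. The libraries were identified by their labels, and they are 2 of the 5 RNA-seq libraries of the series, which has 1 library per condition. All mice were C57BL/6 animals aged 7 weeks of the genotype +/Ym1Venus, in which the fluorescent protein Venus reports the expression of Ym1. LPS was given intravenously at 100 µg per mouse, and the cells were sorted 48 h later. The Ym1+ monocytes were sorted as Ly6C+CD115+Venus+ cells, and the neutrophils as Ly6G+ cells, for which the labels name no gate on Venus. The other libraries were Ly6C+CD115+Venus- monocytes after LPS (Ym1- monocytes), the same gate from untreated mice (naïve monocytes) and Ly6G+ neutrophils from untreated mice (naïve neutrophils). How many mice were pooled for a library is not stated in the sources used. With no replicate there is no test, and every difference below describes a pair of libraries. In bulk samples, fewer cells of a type and less RNA per cell cannot be told apart.

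Neutrophils and monocytes arise in the BM from shared granulocyte-monocyte progenitors. Neutrophils store their proteins in granules that form in a fixed order. Azurophil granules form in promyelocytes and carry myeloperoxidase and serine proteases, specific granules follow and carry lactoferrin and lipocalins, and gelatinase granules and secretory vesicles come last, with proteases and receptors for migration. Monocytes depend on the CSF1 receptor and on the transcription factor IRF8. Ym1, the product of Chi3l3 (now named Chil3), is a secreted chitinase-like lectin that is abundant in mouse neutrophils and in alternatively activated macrophages.

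The promoters of 4 genes are shown, which were among the closest and the farthest apart of the granulocyte list members that are neutrophil-enriched (defined below). Members outside that set, such as Lyz1 and Rap1a, were closer still. Chi3l3 and its neighbour Chi3l4 (now Chil4) were close in level between the cell types, whereas Ltf and Retnlg were far apart. The Ym1+ cells had been gated on the reporter of Chi3l3, so the closeness of this gene is no separate finding. Each run is the 250 bases before the transcription start in the direction of the gene, from RefSeq on GRCm38.p6, which is not the build of the deposited values (mm9). They lie at chr3:106167565-106167814 on the minus strand (Chi3l3), chr3:106219480-106219729 on the minus strand (Chi3l4), chr9:111019042-111019291 on the plus strand (Ltf) and chr16:48872358-48872607 on the plus strand (Retnlg). Capitals mark TTNNGNAA on either strand, a loose form of the motif bound by C/EBP factors, which act in granulocyte differentiation.
Chi3l3: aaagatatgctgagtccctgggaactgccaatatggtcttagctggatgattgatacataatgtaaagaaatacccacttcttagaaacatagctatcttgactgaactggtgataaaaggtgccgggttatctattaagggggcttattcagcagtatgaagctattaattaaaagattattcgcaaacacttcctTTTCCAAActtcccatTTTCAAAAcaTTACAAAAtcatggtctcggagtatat
Chi3l4: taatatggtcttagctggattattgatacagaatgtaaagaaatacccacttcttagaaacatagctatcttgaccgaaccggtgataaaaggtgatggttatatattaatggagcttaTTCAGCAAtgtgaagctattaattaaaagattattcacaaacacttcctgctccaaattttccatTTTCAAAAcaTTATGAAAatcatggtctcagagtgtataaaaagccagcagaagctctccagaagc
Ltf: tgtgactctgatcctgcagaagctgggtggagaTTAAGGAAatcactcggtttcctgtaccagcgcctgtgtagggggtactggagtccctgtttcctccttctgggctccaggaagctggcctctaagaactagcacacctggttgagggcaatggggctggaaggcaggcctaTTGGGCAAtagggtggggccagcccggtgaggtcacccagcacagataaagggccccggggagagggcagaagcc
Retnlg: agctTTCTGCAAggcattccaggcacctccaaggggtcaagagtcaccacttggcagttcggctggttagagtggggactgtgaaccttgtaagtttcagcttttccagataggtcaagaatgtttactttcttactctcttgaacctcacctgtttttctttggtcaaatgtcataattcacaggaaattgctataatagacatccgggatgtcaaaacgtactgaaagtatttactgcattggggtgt
Chi3l3 and Chi3l4 held 3 matches each, Ltf held 2 and Retnlg held 1, while Ngp, a far-apart gene whose window was also searched and is not printed, held 3. These few windows were chosen by the levels of their genes, so the counts cannot show whether matches differ between close and far-apart genes. The matches of Chi3l3 began 53, 37 and 27 bases before the start. The letters TTTCAAAA began 37 bases before the start in Chi3l3 and 66 bases before it in Chi3l4. The windows of this pair are thus shifted against each other, and their match counts cover unlike stretches. The stricter letters TTGCNNAA, every match of which is also a match of TTNNGNAA, were found 2 times in Ngp, once in Chi3l4, in Ltf and in Retnlg and not in this window of Chi3l3. Of 32851 RefSeq promoters cut to this length, 36.8% held TTNNGNAA and 9.56% held TTGCNNAA. The shares were 29% and 7.76% over 10493 promoters of the genes compared and 35% and 10.2% over 628 promoters of the neutrophil-enriched genes defined below, so a match is common. Aligned over 279 positions, the windows of Chi3l3 and Chi3l4 were identical at 202 (72.4%), compared with 45.6% for Chi3l3 and Ltf and 51.9% for Chi3l3 and Retnlg. Each window has 250 bases, so the 279 positions include unpaired bases where the shifted windows do not overlap, which lowers the 72.4%. The share that unrelated windows reach was not measured.

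The authors deposited FPKM values (fragments per kilobase of transcript and per unit of library size). S100 and stefin genes alone took 30.7% of the summed FPKM in neutrophils and 2.79% in Ym1+ monocytes. The sums themselves also differed, at 775532 and 552059. Whether the abundant genes lowered the FPKM of the others was not tested. The FPKM were scaled by median-of-ratios factors, 0.778 for neutrophils and 1.18 for Ym1+ monocytes after LPS. Unless named otherwise, a level is a scaled FPKM, a difference is log2(scaled FPKM + 1) in neutrophils minus that in Ym1+ monocytes, both after LPS, and where a pair of levels is given neutrophils come first, with the difference in brackets. Genes at least 2-fold higher or lower on that scale are called apart, and genes less than 1.5-fold apart in either direction are called level. From the steps between the lowest FPKM, the neutrophil library had 80.9% of the depth of the Ym1+ library. Taking the most frequent low step as 1 fragment, an FPKM of 10 for a transcript of 2 kb stands for about 156 fragments in neutrophils and 193 in Ym1+ monocytes, so levels near 1 rest on few fragments.

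Of 10343 genes compared, 1689 (16.3%) were at least 2-fold higher in neutrophils, 2123 (20.5%) were lower, 4192 (40.5%) were level and 2339 (22.6%) lay between. At 16-fold or more, 106 genes (1.02%) were higher and 51 (0.493%) lower. The median difference was -0.15. This split moves with the scaling. With the FPKM as deposited the higher genes numbered 966 (9.34%) and the lower ones 3695 (35.7%), and the median was -0.65, and after rescaling each library to an equal sum of FPKM (TPM) 685 (6.62%) were higher and 5653 (54.7%) lower, the median being -1.12. A further 145 genes listed at 0 in 1 of these libraries were left out. Among them was Actr3, an actin nucleation gene, at 1058 in neutrophils and listed at 0 in Ym1+ monocytes but at 524 in Ym1- monocytes, so an exact 0 can be a failed estimate.

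The marker genes Retnlg, Csf1r and Chi3l3 behaved differently from one another. Retnlg, which encodes a resistin-like protein of neutrophils, was at 6625 in neutrophils and 17059.5 in naïve neutrophils, against 11.7, 8.73 and 11.4 in Ym1+, Ym1- and naïve monocytes. Both neutrophil libraries thus lay far above all monocyte libraries, and the difference of 9.03 was the largest of all genes with a level of at least 10. The ratio of the levels has a 95% interval of 458 to 724 from counting error alone. Csf1r, which encodes CD115, was at 13.5 in neutrophils and 45.2 in naïve neutrophils, against 117, 123 and 188 in Ym1+, Ym1- and naïve monocytes, with a difference of -3.03. CD115 was an antigen of the monocyte gate, so this order is no separate finding. Chi3l3 was at 2199 in neutrophils and 1979 in naïve neutrophils, against 1496, 318 and 352 in Ym1+, Ym1- and naïve monocytes. For Chi3l3 the Ym1+ library lay nearer to the neutrophils than to the other monocytes, and these cells had been gated on a reporter of this gene. The difference between neutrophils and Ym1+ monocytes was 0.56, but -0.04 with the FPKM as deposited and -0.53 as TPM. The ratio of the scaled levels has a 95% interval of 1.42 to 1.53 from counting error alone.

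**Figure D1:**
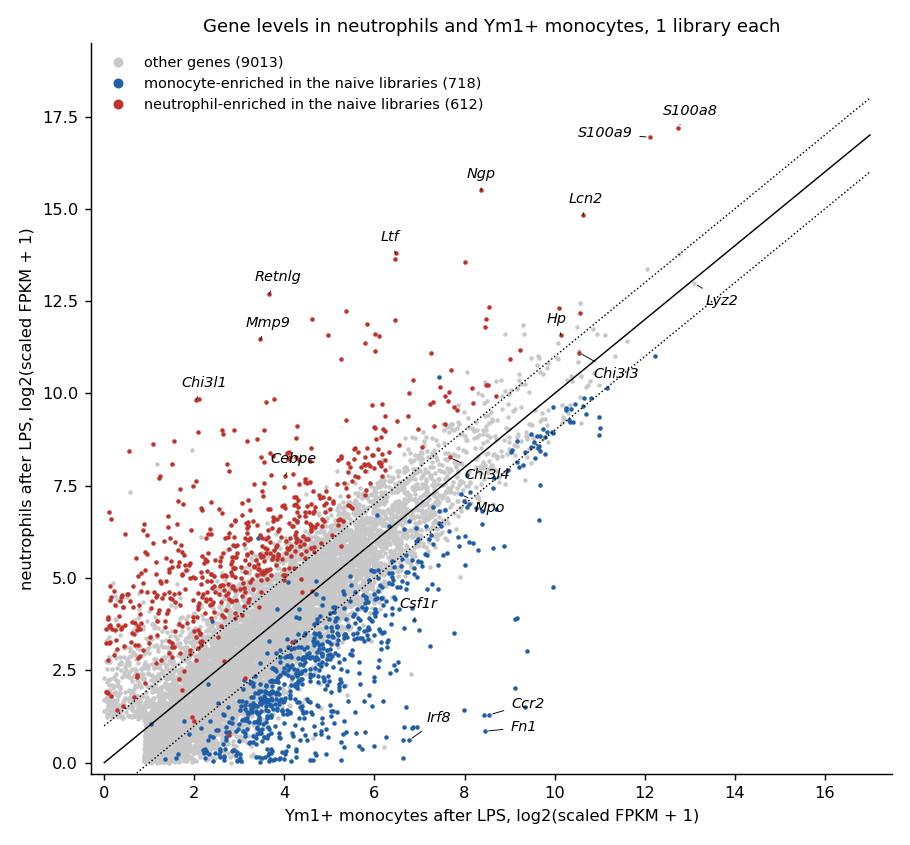
Levels of the 10343 genes compared, as log2(scaled FPKM + 1), in Ym1+ monocytes (horizontal) and neutrophils (vertical) after LPS, 1 library each, with a solid line at equal levels, dotted lines at 2-fold on this scale, and genes enriched in naïve neutrophils (red) or naïve monocytes (blue) coloured. Of 612 red genes 592 lie above the upper dotted line, whereas Chi3l3, at 2199 and 1496, lies near the solid line, on the other side of which it falls when the FPKM are taken as deposited.

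The granulocyte programme was then taken as a set from the naïve libraries, which are not in the compared pair. Neutrophil-enriched genes had a deposited value of 10 FPKM or more in naïve neutrophils and exceeded naïve monocytes 4-fold or more after scaling, and monocyte-enriched genes met the reverse rule. Of 619 neutrophil-enriched genes, 612 could be compared after LPS, of which 592 (96.7%, against 16.3% of all genes) were higher in neutrophils than in Ym1+ monocytes, 14 lay between the limits, 5 were level and 1 was lower. Their median difference was 2.48, against -0.15 over all genes, and it was 2.85 when the same genes were compared between neutrophils and Ym1- monocytes. The Ym1+ level was a median of 15.1% of the neutrophil level (quartiles 5.73% and 24.9%), with 35 genes under 1% and 5 over 100%. These shares are larger with the FPKM as deposited. The set took 54.6% of the summed FPKM in neutrophils and 7.17% in Ym1+ monocytes. With the set kept, 524 of its genes were higher and 5 lower as deposited, and 424 were higher and 6 lower as TPM.

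The level genes of this set were Chi3l3, Hist1h1c, Fgl2, Mpzl3 and Scnn1a, of which Chi3l3 (1.47-fold) was close to the 1.5-fold limit. The Ym1+ cells were gated on the reporter of Chi3l3, and the naïve monocytes that define the set were Venus-. The place of Chi3l3 among the level genes is therefore no separate finding. Hist1h1c, a linker histone gene, was at 24.2 and 23.7 (0.03) and at 60.4 in naïve neutrophils. Fgl2, which encodes a fibrinogen-like protein, was at 23.4 and 20.1 (0.21) and at 69.8 in naïve neutrophils. Mpzl3, a membrane protein gene, was at 5.71 and 5.34 (0.08) and at 19.00 in naïve neutrophils, and Scnn1a, a sodium channel subunit gene, was at 2.90 and 2.29 (0.24) and at 22.4. For these 4 genes the neutrophil library after LPS was below the naïve one, whereas Chi3l3, the most abundant of the 5, was at 2199 with and 1979 without LPS. All 5 were also level with the FPKM as deposited, but as TPM Chi3l3 alone was, since Hist1h1c was past 2-fold lower (-1.03) and Mpzl3 (-0.88), Fgl2 (-0.84) and Scnn1a (-0.59) lay between. Nearest to the 2-fold limit were Fas, a death receptor gene, with 0.96 and Wdr92 with 0.92 on the near side, and Ccdc126 with 1.01 and Hnmt, which encodes a histamine-degrading enzyme, with 1.03 on the far side, and all 4 were level as deposited and as TPM. The lower gene was Ear1, an eosinophil-associated ribonuclease gene, at 0.696 and 5.78 (-1.999), which may share reads with near-identical Ear genes.

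Of 742 monocyte-enriched genes, 718 could be compared, of which 633 (88.2%, against 20.5% of all genes) were lower in neutrophils, 61 lay between, 21 were level and 3 were higher. Their median difference was -1.92. The level ones included Prtn3 and Elane, which encode serine proteases of azurophil granules, and the ribosomal protein genes Rpsa at 800.1 and 1002 (-0.32) and Rpl10 at 481 and 709 (-0.56), which had -0.92 and -1.15 as deposited. The higher ones were Gm11428, Fam20c and Rbpms.

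**Figure D2:**
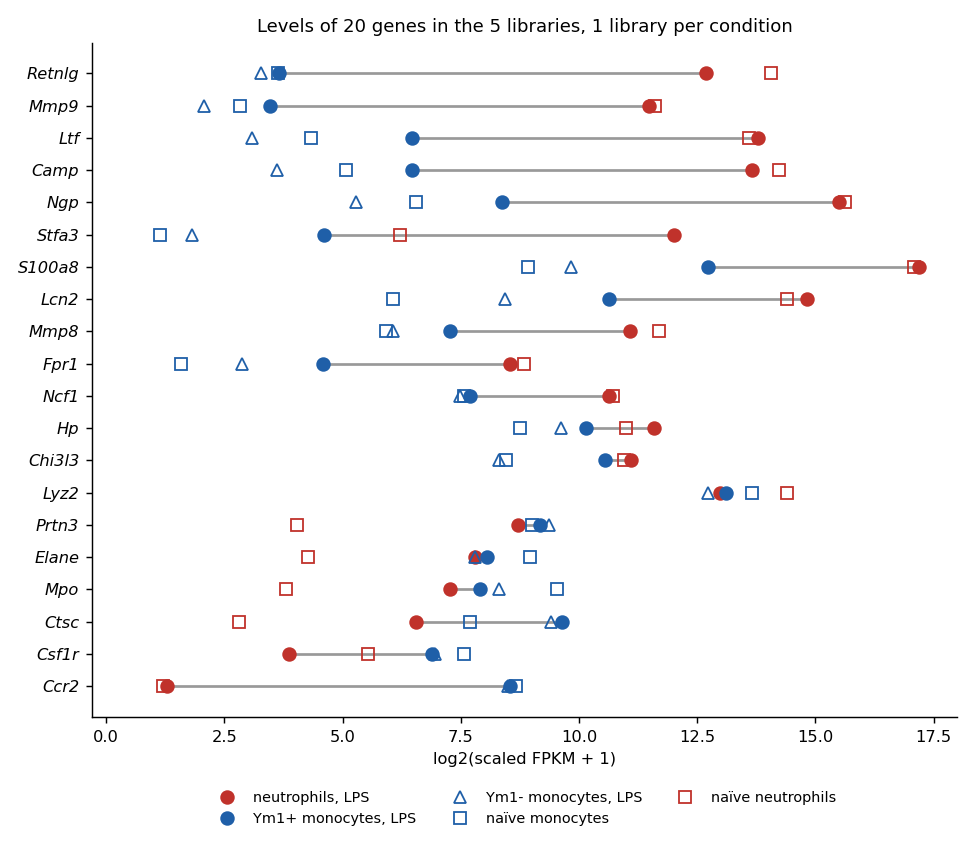
Levels of 20 genes as log2(scaled FPKM + 1) in the 5 libraries, 1 point per library, with a grey line between neutrophils (filled red) and Ym1+ monocytes (filled blue) after LPS, open blue triangles for Ym1- monocytes and open blue squares for naïve monocytes. For Retnlg and Mmp9 the line spans 9.03 and 8.002, for Chi3l3 it spans 0.56 (-0.04 with the FPKM as deposited), and for Elane and Prtn3 the naïve neutrophils (open red squares) stand apart, at levels of 18.3 and 15.4.

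Gene lists by granule class and function were compared next. The 10 granulocyte lists hold 124 genes, of which 117 could be compared, and 89 of these were higher in neutrophils, 6 lower, 16 level and 6 between, with a median of 2.11. Over all genes compared 16.3% were higher, 20.5% lower and 40.5% level, and the counts of each list below are to be read against these shares. The lists were chosen with earlier results of these data known, so their counts may be partly set by that choice. With the FPKM as deposited 75 were higher and 10 lower, and as TPM 62 were higher and 20 lower. The lists took 49.5% of the summed FPKM in neutrophils and 8.02% in Ym1+ monocytes.

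Specific granule genes were higher in neutrophils for all 10 members compared (9 as deposited and 9 as TPM), with a median difference of 6.38, and Ptx3 was listed at 0 in every library. Ltf, which encodes the iron chelator lactoferrin, was at 14183 in neutrophils and 12410.1 in naïve neutrophils, against 87.5, 7.44 and 19.03 in Ym1+, Ym1- and naïve monocytes, with a difference of 7.32. Camp, which encodes the antimicrobial peptide cathelicidin, was at 12897 in neutrophils and 19105 in naïve neutrophils, against 87.3, 11.2 and 32.5 in Ym1+, Ym1- and naïve monocytes (7.19), and Ngp, which encodes neutrophilic granule protein, was at 46451 in neutrophils and 50896 in naïve neutrophils, against 329, 38.2 and 92.7 in Ym1+, Ym1- and naïve monocytes (7.14). For these 3 genes Ym1+ monocytes had under 1% of the neutrophil level and yet the highest level of the monocyte libraries. Lcn2, whose product lipocalin-2 binds siderophores, was nearer, at 29061 in neutrophils and 21631 in naïve neutrophils, against 1590.4, 347 and 66.4 in Ym1+, Ym1- and naïve monocytes. The Ym1+ library held 5.47% of the neutrophil level of Lcn2, a difference of 4.19. Chi3l1, another chitinase-like gene, was at 913 and 3.12 (7.80), Cd177, a neutrophil surface protein gene, at 3082 and 30.2 (6.63), Olfm4, an olfactomedin gene, at 518 and 6.39 (6.13), Pglyrp1, a peptidoglycan recognition gene, at 4065 and 86.1 (5.54), and Mmp8, neutrophil collagenase, at 2178 and 153 (3.83). Hp, which encodes the haemoglobin-binding protein haptoglobin, was the nearest member, at 3054 and 1126 (1.44), and was under 2-fold as deposited (0.84).

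Azurophil granule genes were divided. Of 8 compared, 2 were higher in neutrophils (25%, against 16.3% of all genes), 3 lower (37.5%, against 20.5%), 2 level and 1 between, with a median of -0.55 (-1.14 as deposited, with 5 lower, and -1.63 as TPM, with 6 lower), while the median between naïve neutrophils and naïve monocytes was -4.79. Mpo, which encodes myeloperoxidase, was at 153 in neutrophils and 13.02 in naïve neutrophils, against 240.0, 318 and 745 in Ym1+, Ym1- and naïve monocytes, with a difference of -0.64. Elane, neutrophil elastase, was at 223 in neutrophils and 18.3 in naïve neutrophils, against 266, 221 and 498 in Ym1+, Ym1- and naïve monocytes (-0.25), and Prtn3, proteinase 3, was at 419 in neutrophils and 15.4 in naïve neutrophils, against 574, 661 and 514 in Ym1+, Ym1- and naïve monocytes (-0.45). For these 3 genes the neutrophil library after LPS was within a factor of 5 of each monocyte library, while the naïve neutrophil library was below all of them. As deposited, Mpo (-1.23) and Prtn3 (-1.05) were also past 2-fold lower and Elane (-0.85) lay between, and as TPM all 3 were past 2-fold lower (-1.73, -1.54 and -1.34). Ctsg, cathepsin G, was lower in neutrophils at 75.8 and 202 (-1.40), as were Ctsc, the protease that activates these enzymes, at 93.6 and 801 (-3.08), and Gusb, beta-glucuronidase, at 35.9 and 90.4 (-1.31). Prss57, which encodes an elastase-like protease, was higher at 22.4 and 5.64 (1.82), though under 2-fold as TPM (0.85), and Cd63, which encodes a granule membrane tetraspanin, was higher at 421 and 8.06 (5.54). Bpi was listed at 0 in Ym1+ monocytes.

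The list for gelatinase granules and secretory vesicles was higher in neutrophils for all 9 genes compared, with a median of 2.79, and for 6 of them as TPM. Mmp9, which encodes the gelatinase MMP-9, was at 2838 in neutrophils and 3132 in naïve neutrophils, against 10.1, 3.19 and 6.07 in Ym1+, Ym1- and naïve monocytes. The difference of Mmp9, 8.002, came next after that of Retnlg, and the Ym1+ level was 0.355% of the neutrophil level. Arg2, mitochondrial arginase, was at 49.2 and 0.937 (4.70), Adam8, a membrane protease gene, at 187 and 9.07 (4.22), and Mmp25, a membrane-bound metalloproteinase gene, at 310.4 and 16.5 (4.15). The integrin chains of CD11b/CD18, which monocytes also carry, were nearer. Itgam was at 872 and 157 (2.46) and Itgb2 at 1134 and 286 (1.98). Hk3, a hexokinase gene, was at 341 and 48.5 (2.79), Fcnb, a ficolin gene, at 274 and 67.4 (2.01) and Slc11a1, a phagosomal metal transporter gene, at 105 and 26.2 (1.96), and Alpl was listed at 0 in every library. As TPM, Itgb2 (0.90), Fcnb (0.94) and Slc11a1 (0.90) were under 2-fold.

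Calprotectin and stefin genes were higher for 11 of 12, with a median of 5.52. S100a8, which encodes a calprotectin subunit, was at 150677 in neutrophils and 139075 in naïve neutrophils, against 6799, 914 and 487 in Ym1+, Ym1- and naïve monocytes, a difference of 4.47. S100a9, which encodes the other subunit, was at 125524 in neutrophils and 145220.0 in naïve neutrophils, against 4428, 535 and 271 in Ym1+, Ym1- and naïve monocytes, a difference of 4.82. Ym1+ monocytes thus had 4.51% and 3.53% of the neutrophil levels of S100a8 and S100a9, and the highest levels of the monocyte libraries. The stefin A genes, which encode cysteine protease inhibitors, have near-identical copies that share reads, so their single values are uncertain. Stfa3 was at 4138 and 23.4 (7.41), Stfa2 at 4839 and 40.2 (6.88), BC117090 at 918 and 12.6 (6.08), BC100530 at 3778 and 55.9 (6.05), Gm5483 at 1967 and 37.1 (5.69), Stfa1 at 2655 and 53.97 (5.59) and Stfa2l1 at 3001 and 67.4 (5.46). In naïve neutrophils these 7 were at 23.9 (BC117090) to 751 (Stfa2l1), below the neutrophils after LPS for each. The calcium-binding proteins S100a6 at 3568 and 352 (3.34) and S100a11 at 5062 and 1102 (2.20) were nearer, and Cstb, cystatin B, was level at 102 and 123 (-0.26) but lower as TPM (-1.34).

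Chitinase-like and resistin-like genes included far-apart and level members. Of 6 compared, Retnlg, Chi3l1, Chit1 and Retnla were higher, Chi3l3 was level and Chi3l4 lay between, with a median of 1.62. Chi3l3 (1.47-fold) and Chi3l4 (1.52-fold) lay just on either side of the 1.5-fold limit. The 95% interval from counting error alone spans that limit for both, so their unlike calls mark no contrast. Chit1, chitotriosidase, at 2.41 and 0.108 (1.62), and Retnla, which encodes a resistin-like molecule of alternatively activated macrophages, at 2.69 and 0.206 (1.61), were low in both. Chi3l4 was at 308 in neutrophils and 278 in naïve neutrophils, against 202, 41.2 and 49.2 in Ym1+, Ym1- and naïve monocytes, so its order over the libraries was that of Chi3l3. Its difference of 0.60 becomes -0.48 as TPM, and it may share reads with Chi3l3. Chia was listed at 0 in neutrophils and Retn in Ym1+ monocytes.

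**Figure D3:**
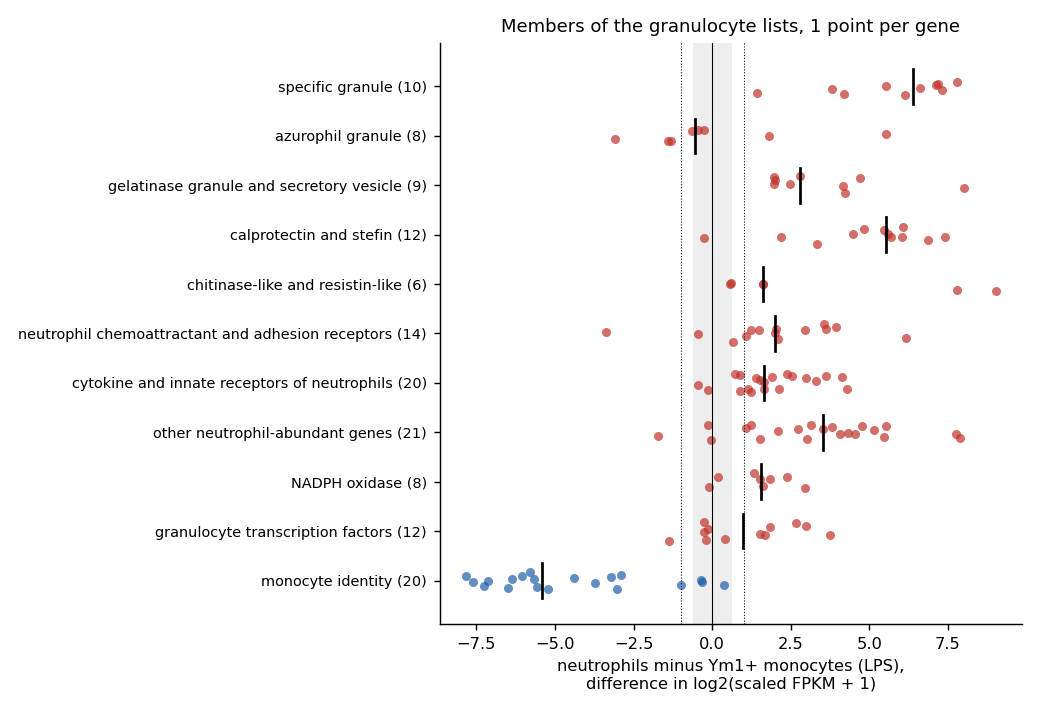
Difference in log2(scaled FPKM + 1), neutrophils minus Ym1+ monocytes after LPS, for each gene of the 10 granulocyte lists (red) and of monocyte identity (blue), with the number compared in brackets, the median as a black bar, dotted lines at 2-fold and the level range shaded. The specific granule list has its median at 6.38, the azurophil list at -0.55 and monocyte identity at -5.40, and under TPM the median of the transcription factors turns from 0.97 to -0.042.

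The receptor lists had lower medians than the lists of specific and gelatinase granules. Of 14 chemoattractant and adhesion receptors, 11 were higher, 1 lower, 1 level and 1 between, with a median of 2.01, and 8 were higher and 2 lower as deposited. Cxcr2, the receptor for neutrophil-attracting CXC chemokines, was at 867 in neutrophils and 797 in naïve neutrophils, against 11.1, 3.96 and 3.28 in Ym1+, Ym1- and naïve monocytes, a difference of 6.16. The formyl peptide receptor genes Fpr1 at 370.0 and 22.97 (3.95) and Fpr2 at 842 and 70.5 (3.56), and C5ar1, the complement C5a receptor, at 289.9 and 22.8 (3.61), were also far apart. Ceacam1, an adhesion molecule gene, was at 362 and 45.6 (2.96). The leukotriene receptor Ltb4r1 at 342 and 79.01 (2.102), the chemokine receptor Ccr1 at 281 and 67.8 (2.04) and Ptafr, the receptor for platelet-activating factor, at 75.2 and 18.2 (1.99) were nearer, the last 2 under 2-fold as TPM (0.96 and 0.94). The adhesion molecules Selplg at 519 and 185 (1.48), Cd44 at 240.3 and 101 (1.24) and Itgal at 121 and 57.2 (1.07), which most leukocytes carry, were under 2-fold as deposited (0.89, 0.65 and 0.49). Cxcr4, the receptor that retains cells in the BM, was level at 114 and 155 (-0.44), with 465 in naïve neutrophils, but past 2-fold lower as deposited (-1.03). Itgb7, an integrin chain gene, was lower at 11.2 and 126 (-3.39).

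Of 20 cytokine and innate receptors, 15 were higher, 2 level and 3 between, with a median of 1.65, and 11 were higher and 1 lower as deposited. The widest were Il1r2, which encodes the decoy receptor for IL-1, at 340.1 and 16.3 (4.31), Clec4d, a C-type lectin receptor gene, at 107 and 5.09 (4.15), Fcgr4, an IgG receptor gene, at 224 and 17.2 (3.63), and Trem1, an activating receptor gene, at 90.7 and 8.20 (3.32). Csf3r, which encodes the receptor for G-CSF, was at 304 in neutrophils and 618 in naïve neutrophils, against 37.04, 24.95 and 54.1 in Ym1+, Ym1- and naïve monocytes, a difference of 3.003. Il4ra, an IL-4 receptor chain gene, was at 177 and 29.3 (2.56), with 34.1 in naïve neutrophils. The GM-CSF receptor chains were nearer. Csf2rb was at 292 and 110.4 (1.39), Csf2rb2 at 103 and 31.96 (1.66) and Csf2ra at 167 and 90.6 (0.88), the last with -0.20 as TPM. Of the receptors for bacterial products, Cd14 was at 28.4 and 9.29 (1.51), Tlr2 at 76.7 and 33.9 (1.15) and Tlr4 at 18.9 and 11.1 (0.72), the last with -0.31 as TPM. Under 2-fold as deposited were Csf2rb (0.80), Cd14 (0.95) and Tlr2 (0.57), and as TPM also Csf2rb2 (0.60). Clec7a, the beta-glucan receptor dectin-1, at 45.9 and 62.9 (-0.45) and Fcgr2b, the inhibitory IgG receptor, at 75.2 and 81.8 (-0.12) were level, but both were lower as TPM (-1.52 and -1.20). The remaining members were Trem3 with a difference of 2.40, Pilra with 2.11, Clec4e with 1.89 (0.83 as TPM), Fcgr3 with 1.65 (0.57 as TPM), Clec5a with 1.23 (0.64 as deposited) and Clec12a with 0.89 (-0.19 as TPM).

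Of the 8 genes of the NADPH oxidase, the enzyme of the respiratory burst, 6 were higher and 2 level, with a median of 1.57, while 4 were higher as deposited, and 2 were higher and 1 lower as TPM. Ncf1, which encodes an organiser subunit, was at 1599 and 206 (2.95), and Rac2, the haematopoietic GTPase of the complex, at 1043 and 199 (2.38). The membrane subunits Cybb at 831 and 231 (1.84) and Cyba at 1483 and 592 (1.32) and the cytosolic subunit Ncf4 at 572 and 188 (1.60) were nearer, Cyba under 2-fold as deposited (0.73) and Cybb (0.76) and Ncf4 (0.52) as TPM. The widely expressed GTPases Rac1 at 279 and 243 (0.20) and Rap1a at 105 and 112 (-0.09) were level, with -0.88 and -1.17 as TPM.

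Of 21 other neutrophil-abundant genes, 18 were higher, 1 lower and 2 level, with a median of 3.54, and 15 were higher as deposited. Prok2, which encodes the secreted peptide prokineticin 2, was at 344 and 0.456 (7.89), and Asprv1, an aspartic protease gene, at 922 and 3.30 (7.75). Ifitm6, an interferon-induced transmembrane gene, was at 12042 and 257 (5.55), Mxd1, which encodes a MYC antagonist, at 515 and 10.7 (5.46), and Lrg1, which encodes a leucine-rich glycoprotein, at 2288 and 63.9 (5.14). Padi4, which encodes the histone-citrullinating enzyme of extracellular traps, was at 446 and 18.1 (4.55), and Anxa1, annexin A1, at 5209.6 and 372 (3.80). The differences of these 7 genes ran from 3.80 to 7.89. Il1b, the interleukin-1 beta gene, was at 36.5 and 0.868 (4.33), with 162 in naïve neutrophils. G0s2 (4.76), Dgat1 (4.07), 1100001G20Rik (3.54), Serpinb1a (3.15), Il1f9 (3.03) and Slpi (2.74) were also apart, as was Ltb4r1, named above. Txnip (1.51), Sepx1 (1.23) and Ccl6 (1.09) were under 2-fold as deposited (0.92, 0.63 and 0.49). The lysozyme genes Lyz2 at 8111 and 8803 (-0.12) and Lyz1 at 1303 and 1338 (-0.04), which are near-identical and share reads, were level, but lower as TPM (-1.20 and -1.12). Ccl3, a chemokine gene, was lower at 1.29 and 6.65 (-1.74), and Cxcl2 was listed at 0 in Ym1+ monocytes.

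The list of granulocyte transcription factors, which also holds Csf3r, was split. Of 12 compared, 6 were higher, 1 lower and 5 level, with a median of 0.97, and as TPM 3 were higher and 5 lower. Cebpe, which encodes the factor of terminal granulocyte differentiation, was at 218 in neutrophils and 287 in naïve neutrophils, against 15.2, 7.16 and 8.43 in Ym1+, Ym1- and naïve monocytes, a difference of 3.76. Gfi1, which encodes a repressor needed for neutrophils, was at 7.81 and 0.397 (2.66). Bcl6 at 47.3 and 12.5 (1.84), Cebpd at 92.2 and 28.3 (1.67) and Junb at 159.7 and 54.6 (1.53) were also higher, Junb under 2-fold as deposited (0.94) and Bcl6 (0.81) and Cebpd (0.61) as TPM. The level factors were Cebpb at 159.9 and 192 (-0.26), Runx1 at 8.26 and 9.24 (-0.15), Runx3 at 3.06 and 3.87 (-0.26), Myb at 7.11 and 8.34 (-0.20) and Per1 at 6.77 and 4.87 (0.41), of which the first 4 were lower as TPM (-1.34, -1.15, -1.18 and -1.20) and Per1 was at -0.54. Cebpa, which acts at the entry to the granulocyte-monocyte lineage, was lower at 5.10 and 14.7 (-1.36).

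The share of the neutrophil level that Ym1+ monocytes reached differed widely between genes. Of the 71 members of the granulocyte lists that are neutrophil-enriched, 11 were under 1%, 34 from 1% to 10% and 24 from 10% to 50%, and 2 were above, Chi3l3 at 68.03% and Chi3l4 at 65.7%. Prok2 (0.133%) was the lowest, Retnlg (0.176%), Mmp9 (0.355%), Ltf (0.617%) and Ngp (0.709%) were also under 1%, S100a8 (4.51%) and Lcn2 (5.47%) near the median of 6.21%, and Hp (36.9%) towards the upper end. Each of these shares is larger with the FPKM as deposited and larger again as TPM, while the order of the genes is kept. As deposited, Chi3l3 was at 1712 in neutrophils and 1759 in Ym1+ monocytes, Chi3l4 was at 239.5 and 237.5, and Hp (0.84) also passed 50%. The Ym1+ cells were gated on the Chi3l3 reporter, so the place of Chi3l3 at the top is no separate finding. The part that neutrophils inside the Ym1+ sort may have had in these values was not tested.

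**Figure D4:**
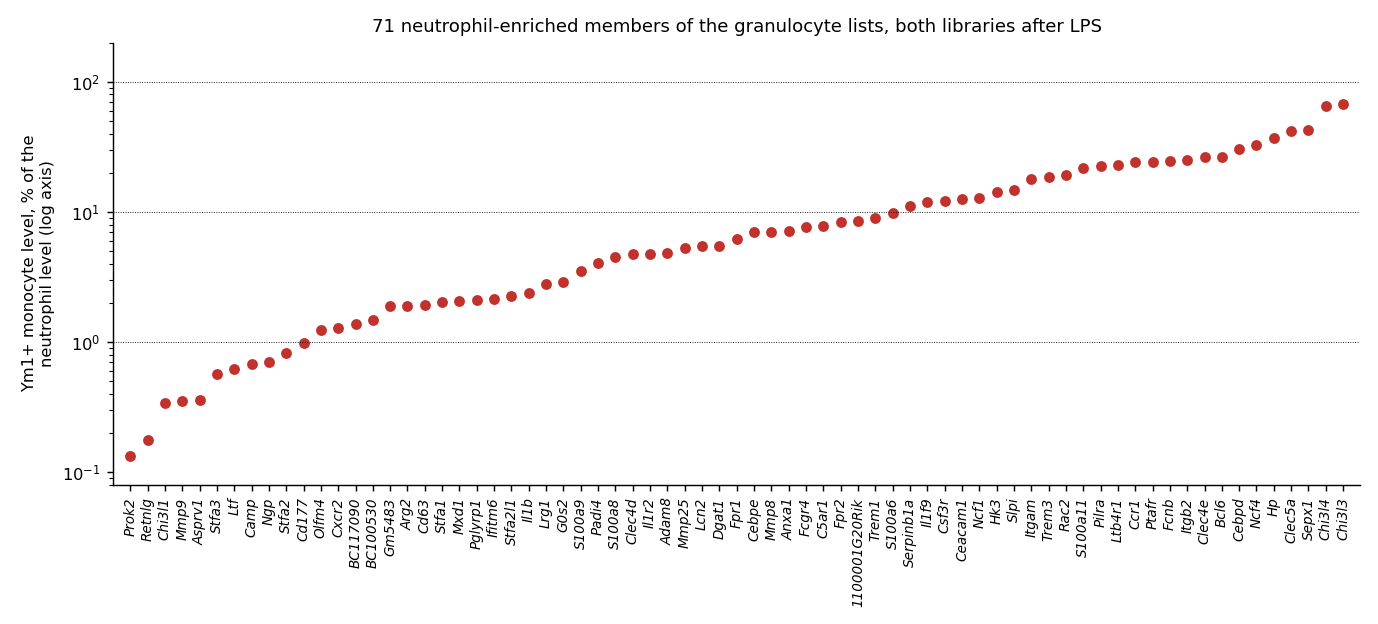
Level in Ym1+ monocytes as percent of that in neutrophils, both after LPS, on a log axis, for the 71 members of the granulocyte lists that are neutrophil-enriched in the naïve libraries, in rising order. The values run from 0.133% (Prok2) to 68.03% (Chi3l3), with a median of 6.21%, and Chi3l4 and Chi3l3 are the 2 genes above 50%. All are shares of scaled levels, and each is larger with the FPKM as deposited.

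Monocyte identity genes were lower in neutrophils for 16 of 20, level for 3 and between for 1, with a median of -5.40. Ccr2, which encodes the receptor by which monocytes leave the BM, was at 1.46 in neutrophils and 1.31 in naïve neutrophils, against 373, 359 and 409 in Ym1+, Ym1- and naïve monocytes, a difference of -7.25. Crip1, a LIM-domain protein gene, was at 1.87 and 653 (-7.83), Fn1, which encodes fibronectin, at 0.804 and 349 (-7.60), and Ms4a6c, which encodes a membrane-spanning protein, at 1.45 and 344 (-7.14). All 3 monocyte libraries were thus above both neutrophil libraries for Ccr2. The further lower members were Ms4a4c (-6.50), S100a4 (-6.36), Ms4a6d (-6.04), Vcan (-5.78), Ly86 (-5.68), Ms4a6b (-5.57), F13a1 (-5.23), Clec4a1 (-4.41), Fcgr1 (-3.74), Clec4a3 (-3.23), Csf1r and Cx3cr1 (-2.89). Ly6c2 at 2073 and 2577 (-0.31) and Ly6c1 at 448 and 577 (-0.36), whose near-identical products are the Ly6C antigens of the monocyte gate, were level, but lower as TPM (-1.40 and -1.45). Lgals3, galectin-3, was level at 789 and 607 (0.38) (-0.71 as TPM), and Cd68, a lysosomal protein gene, lay between at 119 and 237 (-0.99) and was lower as deposited (-1.58).

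Outside these lists the largest negative differences were S100a10 at 3.06 and 554 (-7.09), Pld4, which encodes a lysosomal exonuclease, at 1.71 and 254 (-6.56), and Irf8, the monocyte lineage factor, at 0.520 and 108 (-6.16), and the largest positive ones were Ceacam10 at 392 and 1.12 (7.53) and Hdc, histidine decarboxylase, at 417 and 1.94 (7.15). Of 9 monocyte transcription factors compared 7 were lower and 1 higher, with Klf4 at 0.374 and 62.4 (-5.53) and Irf5 at 7.90 and 150.2 (-4.09) among the lower and Klf2 higher at 107 and 25.7 (2.01), under 2-fold as TPM (0.96). Of 6 genes of Ly6C-low monocytes 3 were lower and 1 higher, namely Cd9, a tetraspanin gene, at 434 and 9.53 (5.37), and Spn was level at 64.7 and 90.7 (-0.48) but lower as deposited (-1.07).

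MHC class II and cathepsin genes were lower in neutrophils for part of the members, against 20.5% of all genes. Of 6 MHC class II genes compared 3 were lower, 2 level and 1 between, with H2-DMa, a peptide-loading subunit, at 5.25 and 85.6 (-3.79), H2-DMb1 at 2.11 and 19.1 (-2.69) and Cd74, the invariant chain, at 1.64 and 11.4 (-2.23). The level call of H2-Ab1, at 1.07 in both, rests on an estimated 5 and 9 fragments, too few to show a likeness. H2-Ab1 was at 7.67 in Ym1- and 21.5 in naïve monocytes. Of 9 cathepsin genes compared 5 were lower, 1 higher and 3 between. Ctss was at 57.3 and 469.9 (-3.01) and Ctsz at 116 and 416 (-1.83), whereas Ctsd was higher at 1209 and 366 (1.72) (under 2-fold as TPM, 0.64).

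Among response genes, 9 of 13 acute phase and STAT3 genes were higher in neutrophils, 2 lower and 2 level, with a median of 1.38 and 5 higher as deposited. Besides Lcn2, Hp and Lrg1, Pim1, a kinase gene, was at 192 and 92.6 (1.04), under 2-fold as deposited (0.45). Saa3, a serum amyloid A gene, was lower at 31.5 and 236 (-2.87), and was at 110.0 in Ym1-, 0.761 in naïve monocytes and 0.400 in naïve neutrophils, so that it was highest in Ym1+ monocytes. Of 19 interferon-stimulated genes 9 were higher, 4 lower, 5 level and 1 between, with a median of 0.95 that turns to -0.11 as TPM. Ifitm3 was at 2009 and 713 (1.49) (0.90 as deposited) and Oas3 at 102 and 13.9 (2.79), and Zbp1 was level at 63.5 and 69.7 (-0.13) but lower as TPM (-1.21). Of 18 cytokine and chemokine ligands 9 were higher and 6 lower, with a median of 0.39 that turns to -0.48 as TPM. Tnfsf14 was higher at 54.7 and 11.3 (2.18), and Ccl9 at 4.40 and 80.1 (-3.91) and Tgfb1 at 65.8 and 144 (-1.12) were lower.

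Cell cycle genes were lower in neutrophils for 20 of 27 and higher for 1, with a median of -1.24. Pcna, the DNA polymerase clamp, was at 118 and 307 (-1.36) and Birc5, survivin, at 89.5 and 186 (-1.05), while Ccnd3, a cyclin gene, was higher at 557 and 201 (1.47), under 2-fold as deposited (0.87). Of 27 cytosolic ribosomal protein genes 8 were lower (29.6%, against 20.5% of all genes), 5 level and 14 between, with a median of -0.86, and 25 were lower as deposited, where 35.7% of all genes were, for example Rplp1 at 1126 and 2309 (-1.04) and Rps2 at 944 and 1616 (-0.78), the latter with -1.37 as deposited. Of 24 oxidative phosphorylation genes 15 were level (62.5%, against 40.5% of all genes), 5 between and 4 lower, with a median of -0.49 and 13 lower as deposited. Cox4i1 was at 478 and 582 (-0.28) and Atp5b at 383 and 570.0 (-0.57), and both were past 2-fold lower as TPM (-1.37 and -1.66). Genes of glycolysis and glycogen were higher for 14 of 23, with a median of 1.31 (0.22 as TPM, with 7 higher and 3 lower). G6pdx, which encodes the first enzyme of the pentose phosphate pathway, was at 1541 and 265 (2.54), Pygl, glycogen phosphorylase, at 1029 and 108 (3.24), and Slc2a3, a glucose transporter gene, at 272 and 1.82 (6.60), the widest of the list. Gapdh lay between at 3438 and 1834 (0.91) and turned to -0.18 as TPM. Of 16 survival and death genes 7 were level (43.8%, against 40.5% of all genes), 5 between, 3 higher (18.8%, against 16.3%) and 1 lower, shares near those over all genes, with Mcl1, which encodes an anti-apoptotic protein, at 386 and 137 (1.49) (under 2-fold as deposited, 0.90) and Bax, which encodes a pro-apoptotic protein, lower at 18.5 and 71.5 (-1.90).

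Marker lists of other cell types were summed in both libraries. The summed levels of the B cell, T and NK cell, erythroid, platelet, eosinophil and basophil, and stem cell lists ran from 1.91 to 26.2 in neutrophils and from 0.295 to 39.8 in Ym1+ monocytes. The defining markers Cd3e, Pax5, Fcer1a and Epx were listed at 0 in both. Other members of their lists were above 0 in both, and an exact 0 can be a failed estimate. The dendritic cell list summed to 17.3 in neutrophils and 63.9 in Ym1+ monocytes, of which Bst2 held 16.5 and 54.3. The list of C1q and tissue macrophage genes was the highest of these lists, at 115 and 124. Of its 11 genes compared 7 were lower in neutrophils, 2 level, 1 between and 1 higher. C1qb was at 1.77 and 27.00 (-3.34) and Emr1, which encodes F4/80, at 10.4 and 38.1 (-1.78), whereas Slc40a1, which encodes the iron exporter ferroportin, was at 88.04 and 2.05 (4.87). The part of such cells in the values above was not tested.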

How the data were processed

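The authors deposited 1 table of FPKM per gene symbol for each of the 5 libraries. According to the submitters' processing notes, the tools were Cufflinks 2.1.1 and TopHat2 2.0.8 with the build mm9, and options and annotation are not stated in the sources used. The library kit was strand-specific. FPKM were divided by median-of-ratios factors from 8129 genes at 1 FPKM or more in all 5 libraries. Differences were taken on log2(scaled FPKM + 1) for genes reaching 1 FPKM in at least 1 of the libraries compared, without Mir, Snor and Scarna genes and without genes listed at 0. FPKM are not counts, so no count model was used, and with 1 library per condition no test could be fitted. Depth was estimated only from steps between low values, and the 95% intervals on ratios cover counting error only. The libraries were identified by their labels, but this pair as the members of the comparison, and the 31 gene lists, were chosen with earlier results of these data known. Genes named, apart from a few list members that are not reported here, are the members of the granulocyte and monocyte identity lists, the 10 largest differences in each direction with a level of at least 10, the 10 most abundant neutrophil-enriched genes that were apart and all 5 that were level, and 2 to 4 abundant members of most other lists. Others (those nearest to a limit, the monocyte-enriched genes, Saa3, Pygl, Slc2a3, Actr3, and the genes of the closing sections) were chosen after their values were seen. Promoters were matched by symbol or older name. Alternatives were the FPKM as deposited, TPM, scaling on the 2 libraries alone, and other pseudocounts, filters, thresholds and sets. The steps were run in Python 3.11.15 with pandas 2.3.3, numpy 2.4.6, scipy 1.17.1 and Biopython 1.88. They were tested on simulated data of genes at 5 FPKM or more, with equal numbers raised and lowered. The simulated libraries had no shift in composition like that between these cell types, so the scaling was not checked against such a shift.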

Additional observations from a re-analysis of the deposited data

Results flagged for a closer look

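Among 491 genes, 13 were at least 2-fold apart in opposite directions after LPS and in the naïve pair, which is what drew attention to them. The value after LPS is neutrophils minus Ym1+ monocytes, and the naïve pair is the same cell types without LPS. The 491 genes were the members of the gene lists and genes picked by their differences. Some of those picked, such as Gm11428, Fam20c and Rbpms, were taken because the pairs disagreed. The count is therefore partly set by that choice, and the share over all genes compared was not counted. Genes with opposite signs under the 2-fold limit are not included. With 1 library per condition the contrast between the pairs was not tested. Gm11428 had 3.03 after LPS and -2.44 in the naïve pair, and was at 1405 in neutrophils and 19.7 in naïve neutrophils, against 172, 104 and 112 in Ym1+, Ym1- and naïve monocytes. Fam20c, which encodes a kinase of secreted proteins, had 2.65 after LPS and -2.87 in the naïve pair, and was at 66.3 in neutrophils and 0.562 in naïve neutrophils, against 9.73, 4.60 and 10.4 in Ym1+, Ym1- and naïve monocytes. Rbpms, an RNA-binding protein gene, had 1.45 and -2.61, and was at 13.4 in neutrophils and 2.03 in naïve neutrophils, against 4.27, 2.11 and 17.4 in Ym1+, Ym1- and naïve monocytes. Ear1, which may share reads with other Ear genes, had -1.999 and 2.07, and was at 0.696 in neutrophils and 16.2 in naïve neutrophils, against 5.78, 9.14 and 3.10 in Ym1+, Ym1- and naïve monocytes, where the lowest values rest on few fragments. Ear12 (-4.41 and 1.07) and Ear2 (-2.63 and 1.37) had the same directions as Ear1. The complement genes C1qa (-2.27 and 2.49), C1qb (-3.34 and 2.81) and C1qc (-2.53 and 2.90) were lower in neutrophils after LPS and higher in the naïve pair, as were Spic, a macrophage transcription factor gene, (-1.82 and 1.01) and Treml4 (-1.01 and 1.14). Cd14 (1.51 and -1.02) and Nkg7 (2.101 and -1.93) had the reverse.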

How the results depend on the processing

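No paired analysis was possible because each condition has a single library, and for the same reason no library could be left out. Depth limits levels near 1. The scaling mattered most, and among 146 named genes no gene turned from higher to lower under any scaling. With the FPKM as deposited, 966 genes were higher and 3695 lower, 355 of 376 neutrophil-enriched genes (chosen anew on that scale) were higher and 8 level, and 1193 of 1268 monocyte-enriched genes were lower. Medians were then -1.14 for azurophil granule, 2.20 for gelatinase granule, 4.93 for calprotectin and stefin, 1.07 for cytokine and innate receptor, 2.94 for other neutrophil-abundant and 0.97 for NADPH oxidase genes. As TPM, 685 genes were higher and 5653 lower, the median was -1.12, 296 of 320 neutrophil-enriched genes were higher and 1800 of 1846 monocyte-enriched genes lower. Medians were then 5.36 for specific granule, -1.63 for azurophil granule, 1.72 for gelatinase granule, 4.45 for calprotectin and stefin, 0.95 for chemoattractant and adhesion receptor, 0.58 for cytokine and innate receptor, 2.46 for other neutrophil-abundant, 0.49 for NADPH oxidase, -0.042 for transcription factor and -6.48 for monocyte identity genes. Of the named genes 127 kept a call of higher, lower or neither as deposited, 101 as TPM, and 146 with scaling on the 2 libraries alone. Level and between both count as neither here, so a level gene that left the level range still counts as kept. Elane (-0.25, and -0.85 as deposited) is such a gene, whereas Hist1h1c (0.03, and -0.54 as deposited) stayed level. How many of the level named genes stayed level was not counted. At 4-fold, 584 genes were higher and 444 lower, and 328 monocyte-enriched genes were lower. With level taken as under 2-fold, 19 neutrophil-enriched genes were level. With sets at least 16-fold apart in the naïve libraries, 168 of 170 were higher and 0 level, and 104 of 109 monocyte-enriched genes were lower. With enrichment taken over Ym1- monocytes, 15 of 802 were level. The chitinase-like and resistin-like median was 3.39 with a pseudocount of 0.1 and 4.20 with 5 FPKM as the filter, since Chit1 and Retnla are low.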

Other observations

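Some genes were not enriched in naïve neutrophils and yet at least 4-fold higher in neutrophils than in Ym1+ monocytes after LPS, and the following were chosen after their values were seen. Ifitm2, an interferon-induced transmembrane gene, was at 3143 in neutrophils and 773 in naïve neutrophils, against 474, 470.5 and 442 in Ym1+, Ym1- and naïve monocytes. Tgm1, a transglutaminase gene, was at 64.7 in neutrophils and 2.72 in naïve neutrophils, against 7.96, 5.67 and 1.71 in Ym1+, Ym1- and naïve monocytes. Cdh1, which encodes E-cadherin, was at 21.5 in neutrophils and 0.0622 in naïve neutrophils, against 0.328, 0.335 and 0.0887 in Ym1+, Ym1- and naïve monocytes. Nos2, which encodes the inducible nitric oxide synthase, was at 21.4 in neutrophils, 0.429 in Ym1+ and 0.0932 in Ym1- monocytes after LPS and was listed at 0 in both naïve libraries. Of these 4 genes, the level in neutrophils after LPS was the highest of the 5 libraries for each.

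In the opposite direction were the eosinophil-associated ribonuclease genes Ear12 and Ear2, which share reads with near-identical copies. Ear12 was at 4.24 in neutrophils and 152 in naïve neutrophils, against 111, 56.3 and 72.1 in Ym1+, Ym1- and naïve monocytes, and Ear2 was at 8.84 in neutrophils and 75.9 in naïve neutrophils, against 59.99, 20.5 and 28.8 in Ym1+, Ym1- and naïve monocytes. Fos, an immediate early gene, was at 2.57 in neutrophils and 11.8 in naïve neutrophils, against 40.9, 26.99 and 21.2 in Ym1+, Ym1- and naïve monocytes. For these 3 genes the neutrophils after LPS were the lowest of the 5 libraries.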
